A study of Rattus norvegicus with 16 samples.

Results

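The left ventricle 5 weeks after 5/6 nephrectomy (5/6Nx) was compared with that 5 weeks after sham surgery in 4 small RNA libraries, 2 per group, chosen by their labels out of the 16 libraries of the series. 5/6Nx is a rat model of chronic kidney disease that leaves a remnant of kidney tissue, here by the excision method, and the series places it in cardiorenal syndrome type 4, in which the heart becomes diseased after the kidneys fail. The animals of both groups were male Sprague Dawley rats fed 0.4% Dyets chow and operated on at 10 weeks of age. Each library was made from a pool of 2 to 3 rats, so the spread among single animals is not visible, and p-values measure the spread between pools, which are not stated to come from separate cohorts. The pools are called A and B, as the count tables name them. The week 5 table listed 358 rat microRNAs (miRNAs), of which 317 were listed at all 4 time points and 306 had enough counts to be tested. The other 11 of the 317 were too low to test, and 41 were not listed at week 7.

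A miRNA is a short RNA, cut from either arm of a hairpin precursor (written 5p or 3p), that guides a silencing complex to messenger RNAs. Pairing rests mainly on the seed, bases 2 to 8 from the 5′ end, so miRNAs with the same seed share many targets. In the heart, miR-1, miR-133a, miR-208 and miR-499 are made by cardiomyocytes, miR-21 and the miR-29 family are known for their roles in fibrosis, and miR-146a and miR-146b are induced by NF-κB and dampen inflammatory signalling.

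The mature sequences of the miRNAs on which the comparison turned are given first, from RefSeq (build GRCr8), with the seed in capitals. Of the 306 tested miRNAs 277 were matched to a RefSeq sequence by name. These are the pair of the miR-146 family, which had the most negative log2 changes among miRNAs with a mean of at least 100 CPM:
miR-146b-5p: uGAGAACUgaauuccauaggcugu
miR-146a-5p: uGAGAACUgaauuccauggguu
The pair has the same seed and the same first 17 bases. These are both arms of the hairpins Mir21 and Mir24-2, shown because the arms of each had unlike log2 changes:
miR-21-3p: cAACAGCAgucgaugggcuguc
miR-21-5p: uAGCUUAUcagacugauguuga
miR-24-2-5p: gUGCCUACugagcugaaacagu
miR-24-3p: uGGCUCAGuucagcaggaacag
These were also separated between the groups, miR-351-5p having the seed of miR-125b-5p:
miR-351-5p: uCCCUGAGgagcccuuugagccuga
miR-10a-5p: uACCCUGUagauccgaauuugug
miR-92a-3p: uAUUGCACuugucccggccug
This miRNA and its partner from the opposite strand passed the test against the other weeks in the upward direction:
let-7d-5p: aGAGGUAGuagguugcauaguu
miR-3596b: aACUAUGCaaccuacuaccu
These set the 2 sham pools apart, miR-100-5p and miR-99b-5p with a common seed:
miR-100-5p: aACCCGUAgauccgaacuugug
miR-99b-5p: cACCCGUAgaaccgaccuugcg
miR-191a-5p: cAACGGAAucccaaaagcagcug
miR-532-5p: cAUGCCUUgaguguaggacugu
miR-143-3p: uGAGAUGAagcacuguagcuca

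In GRCr8 miR-146b-5p lies on the plus strand at chr1:255144874-255144897, within the span of the protein-coding gene C1h10orf95, and miR-146a-5p on the minus strand at chr10:28350053-28350074, within that of a long non-coding RNA. Both arms of Mir21 lie on the minus strand of chromosome 10, miR-21-3p at chr10:71902615-71902636 and miR-21-5p at chr10:71902653-71902674, outside any other annotated gene. miR-24-2-5p comes from chr19:40859517-40859538 on the minus strand. Its partner miR-24-3p can come from the same hairpin at chr19:40859481-40859502 or from Mir24-1 at chr17:1818672-1818693, which lies within Aopep. miR-351-5p lies at chrX:137725157-137725181 on the minus strand. miR-10a-5p lies at chr10:81779730-81779752 on the plus strand and no other gene spans it.

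The pools held 2658563 (sham A), 2733783 (sham B), 2822506 (5/6Nx A) and 3462488 (5/6Nx B) counts on rat miRNAs, and over 99.9% of them fell on the 306 tested. The tissue label was checked against cardiomyocyte miRNAs: the 9 measured of 12 listed summed to 61058 and 62027 CPM (counts scaled to a common library size with TMM factors) in sham and 71008 and 62024 in 5/6Nx, most of it miR-133a-3p, and miR-1-3p, miR-208a-3p and miR-499-5p were present in every pool. Of 14 miRNAs typical of liver, gut, kidney, brain or epithelium, 8 were measured, and they summed to 2482, 2497, 2120 and 2098 CPM in the same order of pools, most of it miR-192-5p.

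Sham pool A stood apart from sham pool B. Over the 133 miRNAs with a mean of at least 100 CPM at week 5, the standard deviation of the log2 ratio of pool A to pool B was 0.75 in the sham group and 0.17 in the 5/6Nx group, and between 0.21 and 0.27 in the 6 groups of the other weeks. Between the sham pools 15 of the 133 (11.3%) differed more than 2-fold, against 1 between the 5/6Nx pools and 0 within each other group. Across the tested miRNAs sham B and the 5/6Nx pools were closer to each other (r = 0.993 for each pair with sham B) than sham A was to any of them (r = 0.979 with sham B and 0.983 with each 5/6Nx pool). These correlations are across miRNAs, which are not independent replicates.

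Among the 133 miRNAs with a mean of at least 100 CPM, those highest in sham A relative to sham B were miR-99a-5p (2143 against 446 CPM), miR-191a-5p (35407 against 8816), miR-99b-5p (5824 against 1474), miR-126a-5p (51440 against 13100) and miR-100-5p (2295 against 855). Among the same 133 the opposite difference was largest for miR-532-5p (24.2 CPM in sham A against 193 in sham B), miR-423-3p (44.3 against 216), miR-143-3p (81808 against 258438), miR-30c-2-3p (70.1 against 212) and miR-101a-3p (4485 against 11933). In each of these 10, sham A was the outermost of the 4 week 5 pools on the side that names it here. They were picked for the ratio of sham A to sham B, so this position follows largely from the selection. Sham B was the outermost pool on the other side in all but miR-532-5p and miR-423-3p. miR-143-3p, which smooth muscle cells make in quantity, was the most abundant miRNA of the tissue, and miR-126a-5p comes from a hairpin within Egfl7, a gene of endothelial cells. For miR-191a-5p the 4 libraries of week 2 lay between 11444 and 15094 CPM, those of week 4 between 23754 and 35035, and those of week 7 between 41025 and 50855. Thus sham A lay just above the highest week 4 library, while both 5/6Nx pools lay within the range of week 2 and sham B below it. Over the 133 miRNAs the log2 ratio of sham A to sham B followed the difference between the mean levels of week 4 and week 2 (r = 0.67, rho = 0.70, a description across miRNAs that share these libraries). Base composition was set beside the same ratio: over the 118 of these miRNAs with a sequence, r with the percent of G and C was 0.11. For the log2 ratio of 5/6Nx to sham A it was 0.02, and for that of 5/6Nx to sham B 0.28. Between 5/6Nx A and 5/6Nx B it was 0.22. The part of base composition in the changes was not tested.

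**Figure D1:**
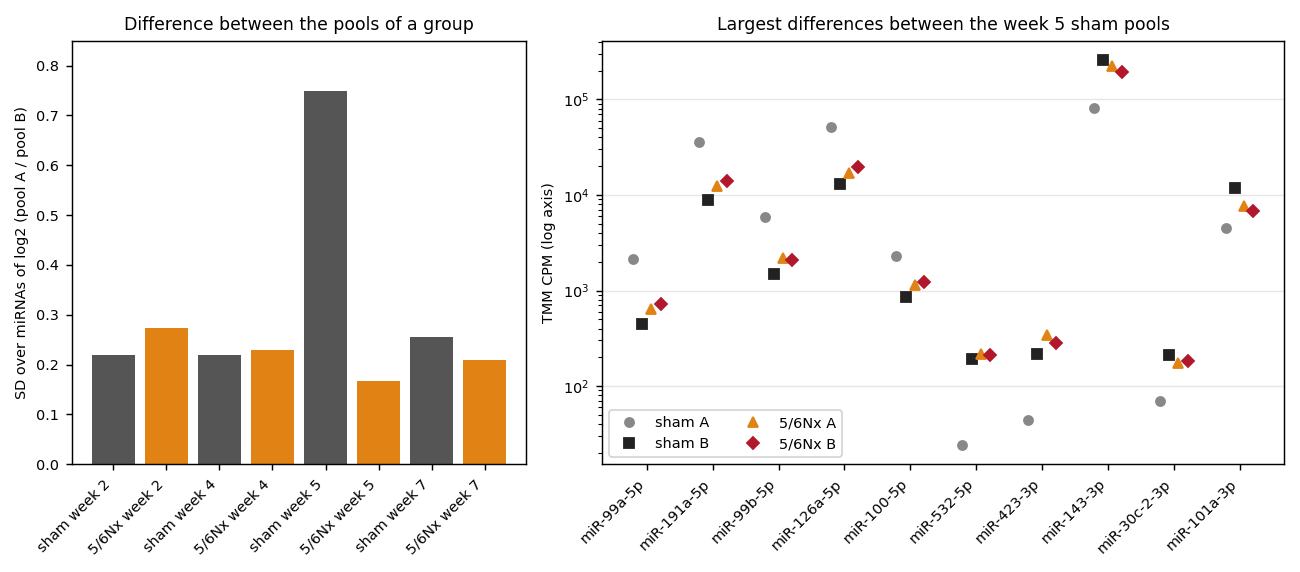
Left, the standard deviation over 133 miRNAs of the log2 ratio of pool A to pool B in each of the 8 groups (grey sham, orange 5/6Nx): 0.75 for week 5 sham and at most 0.27 elsewhere. Right, CPM on a log axis in the 4 week 5 pools for the 10 miRNAs that differed most between the sham pools (5 per direction, of those 133 with a mean of at least 100 CPM). Sham A is the highest or the lowest pool in each.

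The order of the pools differed by another measure. Of the 133 miRNAs, 18 lay outside the range of the 12 libraries of other weeks in sham A, 30 in sham B, 9 in 5/6Nx A and 2 in 5/6Nx B. Each change is therefore given against each sham pool as well as against both.

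Against both sham pools together no miRNA passed the threshold in edgeR's quasi-likelihood test, a Benjamini-Hochberg adjusted p under 0.05 (0 of 306, 0%). The spread behind each SE and p was pooled over the 8 groups of the series. Week 5 sham, whose pools differed most, is thus taken to vary like the other groups, here and in the tests between weeks. The smallest adjusted p was 0.0635 and 27 miRNAs had an unadjusted p under 0.05. With sham A left out 13 passed and with sham B left out 63, while leaving out either 5/6Nx pool of week 2 gave 2 and either of week 7 gave 1. DESeq2 on the same miRNAs called 6, of which 5 were lower (miR-146a-5p, miR-146b-5p, miR-24-3p, miR-10a-5p and miR-3068-5p) and 1 higher (miR-21-3p). Both 5/6Nx pools lay above both sham pools for 66 miRNAs (21.6%) and below both for 41 (13.4%). By at least 1.25-fold in all 4 ratios between pools, 13 were higher (4.25%) and 9 lower (2.94%).

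Taken against 1 sham pool at a time, the result depended on the pool. With the sham pools as separate groups in the fit, the 5/6Nx group passed the threshold against sham A as higher for 32 miRNAs (10.5%) and lower for 35 (11.4%), and against sham B as higher for 2 (0.654%) and lower for 2 (0.654%). Here a lone pool is assumed to vary like the other groups, this fit was chosen after seeing the data, and both comparisons use the same 5/6Nx pools. The difference between the sham pools no longer counts as spread in this fit. Its common dispersion, edgeR's overall measure of spread within groups, was 0.012, against 0.027 with the sham pools as 1 group. Passing against each sham pool is therefore not firmer than the test against both. Unadjusted p-values under 0.05 numbered 97 against sham A and 68 against sham B. Against sham B the 2 higher were miR-497-5p and miR-872-3p, and the 2 lower were miR-146b-5p and miR-101a-3p; the first pair was named after its values were seen. miR-497-5p, of the miR-15 and miR-16 seed family, had 434 and 202 CPM in sham and 358 and 336 in 5/6Nx, and miR-872-3p had 68.8 and 33.5 CPM in sham and 71.7 and 70.5 in 5/6Nx, so in both sham B alone was low. Of these, miR-146b-5p was lower against sham A too, while miR-101a-3p was higher against sham A (log2 0.69 ± 0.17, adjusted p = 0.00964) and lower against sham B (-0.72 ± 0.16, adjusted p = 0.0391). miR-146b-5p was the 1 miRNA past the threshold in the same direction against each sham pool.

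**Figure D2:**
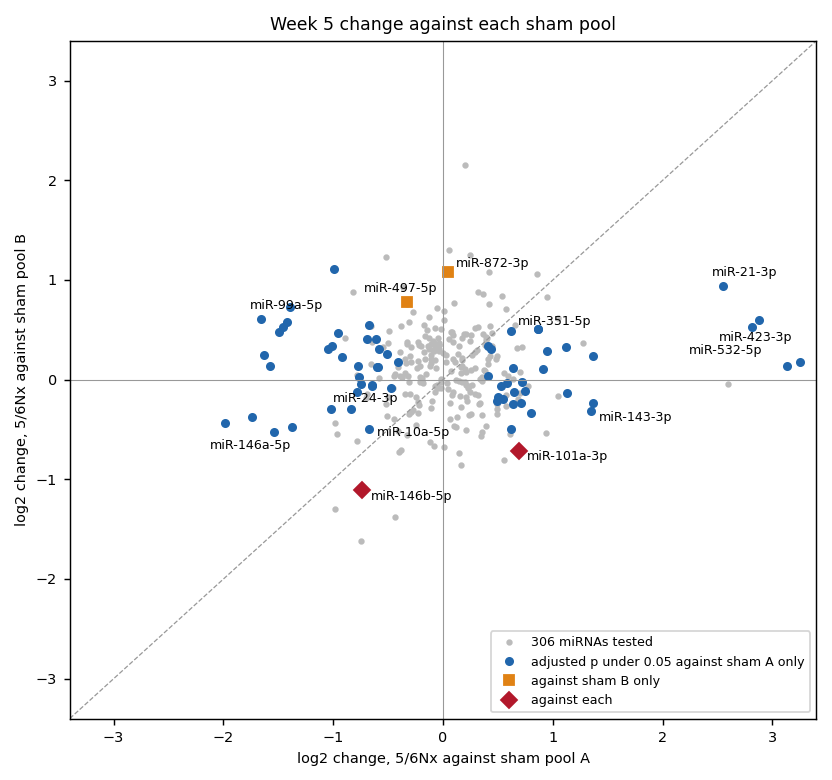
Log2 change at week 5 of 306 miRNAs, with the 5/6Nx pools set against sham pool A (x axis) and sham pool B (y axis). Points on the dashed line have the same change against each; the 67 miRNAs called against sham A spread from the far left to the far right, and only miR-146b-5p and miR-101a-3p of them were called against sham B; miR-146b-5p lies in the lower left with -0.74 and -1.11.

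miR-146b-5p had 697 and 902 CPM in sham A and B and 395 and 441 CPM in 5/6Nx A and B. Both 5/6Nx pools were below both sham pools, the nearest pair by 1.58-fold, and here sham B, not sham A, was the higher control. The log2 change was -0.93 ± 0.19 (SE, n = 2 pools a group, adjusted p = 0.0635), which is 1.91-fold lower. It was -0.74 ± 0.19 against sham A (adjusted p = 0.0118) and -1.11 ± 0.18 against sham B (adjusted p = 0.00602). In tissue RNA a lower level can come from fewer cells of a type or from less RNA per cell, and these cannot be told apart here.

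Its seed relative miR-146a-5p had 2301 and 1233 CPM in sham and 845 and 925 CPM in 5/6Nx. The groups did not overlap, but the sham pools differed from each other by more than sham B differed from either 5/6Nx pool. The log2 change was -0.998 ± 0.232 (adjusted p = 0.0694), -1.38 ± 0.16 against sham A (adjusted p = 1.92e-05) and -0.48 ± 0.17 against sham B (adjusted p = 0.124). Of the 3 measured of 5 listed miRNAs known for NF-κB feedback, the third, miR-155-5p, which macrophages and lymphocytes make on activation, had 21.1 and 16.2 CPM in sham and 17.6 and 23.3 CPM in 5/6Nx, with overlapping groups.

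Leukocyte miRNAs were not lower in the 5/6Nx pools as a list. Of 11 listed, 9 were measured, 6 of them above and 3 below 0 in log2 change (170 of 306 above among all tested), with 0 past the threshold. Against sham A 5 were above and 4 below, and against sham B 8 and 1. The 9 summed to 2084 and 1471 CPM in sham and 2103 and 1953 CPM in 5/6Nx. Most of this was miR-150-5p, with 1542 and 1167 CPM in sham and 1743 and 1499 in 5/6Nx. miR-142-5p had 333 and 169 CPM in sham and 207 and 265 in 5/6Nx, with overlapping groups. miR-142-3p, made by blood cells of most kinds, had 40.5 and 45.3 CPM in sham and 41.8 and 54.3 in 5/6Nx. miR-223-3p, of neutrophils and monocytes, had 39.2 and 39.0 CPM in sham and 47.1 and 55.4 in 5/6Nx (log2 0.39 ± 0.20, adjusted p = 0.502). Both 5/6Nx pools were above both sham pools for miR-223-3p and the groups overlapped for miR-142-3p. miR-342-3p was at 91.6 CPM in sham A and between 21.0 and 38.4 in the other pools.

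The arms of Mir24-2 lay on opposite sides of the sham pools. miR-24-3p, which is processed with miR-23 and miR-27 and is known to limit vessel growth in the injured heart, had 2141 and 1295 CPM in sham and 992 and 1114 in 5/6Nx. miR-24-2-5p had 291 and 270 CPM in sham and 384 and 401 in 5/6Nx. Both sham pools were above both 5/6Nx pools for the first and below them for the second. For miR-24-3p the log2 change was -0.71 ± 0.21 (adjusted p = 0.171), -1.02 ± 0.17 against sham A (adjusted p = 0.000363) and -0.30 ± 0.17 against sham B (adjusted p = 0.343). For miR-24-2-5p it was 0.48 ± 0.15 (adjusted p = 0.171), 0.43 ± 0.16 against sham A (adjusted p = 0.0639) and 0.54 ± 0.16 against sham B (adjusted p = 0.0828). The change of miR-24-2-5p was thus of like size against each sham pool, whereas that of miR-24-3p was over 3 times as large, in log2, against sham A. The difference between the arms was not tested.

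The neighbours of miR-24-3p in its clusters did not share its position. Of 9 measured of 11 listed members of the miR-23, miR-27 and miR-24 clusters 6 had a log2 change above 0 and 3 below, none past the threshold. miR-27b-3p, the most abundant, had 45147 and 37031 CPM in sham and 47261 and 49033 in 5/6Nx. miR-23a-3p had 1732 and 1250 CPM in sham and 1438 and 1387 in 5/6Nx, with overlapping groups.

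miR-21-3p, the minor arm of Mir21, had the largest upward change of all tested miRNAs and was scarce. It had 18 and 51 counts (6.13 and 18.8 CPM) in sham A and B and 98 and 137 counts (34.4 and 37.6 CPM) in 5/6Nx A and B. The 5/6Nx pools agreed closely and lay above both sham pools, by 1.83-fold for the nearest pair, while the sham pools differed from each other by more than sham B differed from 5/6Nx A. The log2 change was 1.54 ± 0.35 (adjusted p = 0.0694), 2.55 ± 0.34 against sham A (adjusted p = 5.24e-05) and 0.94 ± 0.28 against sham B (adjusted p = 0.0828). The major arm miR-21-5p, which fibroblasts raise in the stressed heart, had 4542 and 5696 CPM in sham and 5642 and 5986 in 5/6Nx. These groups overlapped, and the log2 change was 0.18 ± 0.14 (adjusted p = 0.654), 0.36 against sham A and 0.03 against sham B.

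**Figure D3:**
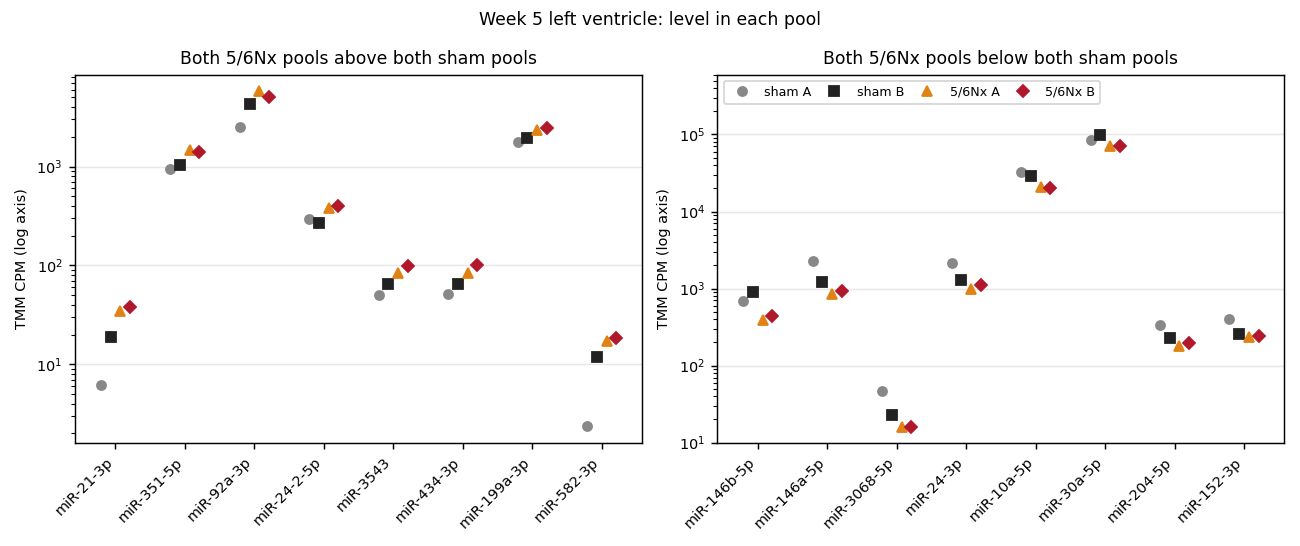
CPM on a log axis in each week 5 pool for the 8 miRNAs per direction with the smallest p among those whose groups did not overlap. miR-146b-5p stands at 697 and 902 CPM in sham and 395 and 441 in 5/6Nx; in 6 of the 8 lower miRNAs sham A (grey circle) is the highest pool and in 7 of the 8 higher ones it is the lowest.

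The other miRNAs with the smallest p among those that lay above both sham pools were miR-351-5p, miR-92a-3p, miR-3543, miR-434-3p, miR-199a-3p and miR-582-3p. miR-351-5p, a rodent member of the miR-125 seed family from the X-linked miR-322 cluster, had 941 and 1029 CPM in sham and 1487 and 1395 in 5/6Nx. The sham pools agreed for it, and its log2 change was 0.55 ± 0.16 (adjusted p = 0.171), 0.61 against sham A (adjusted p = 0.0164) and 0.49 against sham B (adjusted p = 0.124). The other measured members with its seed, miR-125a-5p and miR-125b-5p, were above 0 in log2 change against both sham pools together. They were below 0 against sham A (-0.09 and -0.17) and above 0 against sham B (0.39 and 0.44). The groups overlapped for miR-125a-5p (4126 and 2949 CPM in sham, 3845 and 3889 in 5/6Nx) and for miR-125b-5p (3129 and 2057 CPM in sham, 2657 and 2916 in 5/6Nx). Of the 8 measured of 10 listed miRNAs of the miR-322 cluster 4 were above and 4 below 0. miR-322-3p had 101 and 160 CPM in sham and 209 and 183 in 5/6Nx.

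miR-92a-3p, of the miR-17-92 cluster and known to limit vessel growth, had 2497 and 4314 CPM in sham and 5773 and 5054 in 5/6Nx. It can also come from Mir92a2 on chromosome X. Sham A was far below the other pools, and the log2 change was 0.67 ± 0.20 (adjusted p = 0.171), 1.12 against sham A (adjusted p = 8.35e-05) and 0.33 against sham B (adjusted p = 0.212). The list that holds its cluster was split: of 13 measured of 18 listed miRNAs of the miR-17-92 and miR-106b-25 clusters and their relatives 6 were above and 7 below 0. Those above 0 included miR-106b-5p, miR-106b-3p and miR-93-5p, which are of the miR-106b-25 cluster. Its most abundant measured member, miR-25-3p, was just below 0 (log2 -0.015). The groups overlapped for miR-93-5p and miR-25-3p. miR-17-5p had 36.1 and 29.8 CPM in sham and 22.1 and 28.0 in 5/6Nx.

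miR-199a-3p, an abundant product of fibroblasts and other mesenchymal cells from a hairpin within Dnm3, had 1769 and 1931 CPM in sham and 2315 and 2457 in 5/6Nx. The pools of each group agreed within 10%, and the log2 change of 0.37 ± 0.12 (adjusted p = 0.188) was 0.43 against sham A (adjusted p = 0.0158) and 0.31 against sham B (adjusted p = 0.146). The other arm, miR-199a-5p, had 398 and 313 CPM in sham and 375 and 402 in 5/6Nx, with overlap. miR-434-3p, from the span of the imprinted gene Rtl1, had 51.1 and 65.2 CPM in sham and 84.3 and 101 in 5/6Nx (log2 0.68 ± 0.21, adjusted p = 0.171). miR-3543 is annotated on the opposite strand of the same bases and had nearly the same counts, so these are not separate measurements. miR-582-3p rested on few reads, 7 and 32 counts in sham and 49 and 67 in 5/6Nx, and its change was 2.87 against sham A and 0.60 against sham B on the log2 scale.

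Among the miRNAs below both sham pools, miR-10a-5p, encoded among the Hox genes, was the most abundant after miR-30a-5p. It had 32448 and 28581 CPM in sham and 20727 and 19942 in 5/6Nx. The sham pools agreed better than in most miRNAs of this group, the nearest pools differed by 1.38-fold, and the log2 change was -0.59 ± 0.18 (adjusted p = 0.171), -0.67 against sham A (adjusted p = 0.0158) and -0.49 against sham B (adjusted p = 0.146). Its other arm, miR-10a-3p, was near the limit of detection with 5.79 and 2.21 CPM in sham and 1.41 and 1.92 in 5/6Nx.

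miR-30a-5p, which cardiomyocytes express highly and which is known to repress connective tissue growth factor, had 84678 and 97797 CPM in sham and 71381 and 70993 in 5/6Nx. Like miR-146b-5p it was higher in sham B than in sham A. Its log2 change was -0.36 ± 0.13 (adjusted p = 0.262), -0.25 against sham A (adjusted p = 0.157) and -0.46 against sham B (adjusted p = 0.0762). Of the 4 miRNAs matched to a sequence with its seed, itself included, 2 were above and 2 below 0, and miR-30e-5p had 26652 and 27923 CPM in sham and 26772 and 27892 in 5/6Nx.

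miR-3068-5p, miR-204-5p and miR-152-3p completed the lower group, and for these the change rested largely on sham A. miR-3068-5p had 46.3 and 22.8 CPM in sham and 15.8 and 15.9 in 5/6Nx. miR-204-5p, from the span of Trpm3, had 335 and 229 CPM in sham and 180 and 194 in 5/6Nx. miR-152-3p had 406 and 258 CPM in sham and 233 and 239 in 5/6Nx. Against sham A each passed the threshold (log2 -1.54, -0.84 and -0.78, with adjusted p = 0.000363, 0.00964 and 0.00134) and against sham B their changes were -0.52, -0.29 and -0.13 (adjusted p = 0.320, 0.498 and 0.672).

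Among all miRNAs whose groups did not overlap, sham A was the lowest pool for 36 of the 66 higher and the highest pool for 26 of the 41 lower. Among the 8 per direction named above sham A was the pool farther from 5/6Nx for 7 of 8 higher and 6 of 8 lower. These 8 were picked by their p in the same pools, so the counts describe the selection and are not separate support.

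The remaining miRNAs of the heart's cell types were set against the medians over all 306 tested, which were 0.05 in log2 change against both sham pools, 0.01 against sham A and 0.12 against sham B. Cardiomyocyte miRNAs had a median of -0.07 (0.02 with upper quartile scaling), with 4 of 9 measured above and 5 below 0 and 0 past the threshold. miR-1-3p, the muscle miRNA that restrains growth, had 2590 and 2638 CPM in sham and 2054 and 2226 in 5/6Nx (log2 -0.29 ± 0.23, adjusted p = 0.662). miR-208a-3p, from within Myh6, had 888 and 693 CPM in sham and 805 and 702 in 5/6Nx, and miR-208b-3p, from within Myh7, whose level tracks the slow myosin gene raised in failing rodent hearts, had 1720 and 1792 in sham and 1610 and 1668 in 5/6Nx. miR-499-5p, from within Myh7b, had 1361 and 1200 CPM in sham and 1170 and 1188 in 5/6Nx. Both 5/6Nx pools were below both sham pools for 4 of the 9, miR-1-3p, miR-208b-3p, miR-499-5p and miR-499-3p (13.4% among all tested), and above both for 2, miR-133a-3p and miR-133a-5p (21.6% among all tested).

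Of 12 listed fibroblast and profibrotic miRNAs, 11 were measured. In log2 change 9 were above and 2 below 0 (170 of 306 above among all tested). Their median was 0.18 (0.15 against sham A and 0.31 against sham B), and 0 passed. Both 5/6Nx pools were above both sham pools for 4 (66 of 306, 21.6%, among all tested) and below both for 0. With upper quartile scaling, which moved the median of all 306 from 0.05 to 0.12, all 11 were above 0 (192 of 306 among all tested). miR-221-3p and miR-222-3p, neighbours on chromosome X with a common seed that are induced in stressed vessels and fibroblasts, had both 5/6Nx pools above both sham pools: 163 and 195 against 215 and 218 CPM for miR-221-3p, and 44.3 and 56.7 against 61.5 and 79.0 CPM for miR-222-3p. miR-214-3p (50.7 and 49.7 against 46.7 and 53.2 CPM) and miR-132-3p (18.7 and 11.8 against 21.8 and 18.7 CPM), both raised in hypertrophy models, overlapped between the groups. The 17 miRNAs known to rise in pressure overload, which hold 10 of the same names, had 11 above and 6 below 0 and a median of 0.13.

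The antifibrotic families miR-29 and miR-30 had 3 of 8 measured members above and 5 below 0, median -0.06 (0.02 with upper quartile scaling). miR-29a-3p had 3135 and 2466 CPM in sham and 2800 and 2635 in 5/6Nx, miR-29b-3p 122 and 108 against 109 and 105, and miR-29c-3p 735 and 573 against 575 and 600, and all 3 overlapped. Beside miR-30a-5p only miR-30d-5p of these 8 had both 5/6Nx pools below both sham pools (13.4% among all tested). Both were above for miR-30b-5p (21.6% among all tested), with 1545 and 1211 CPM in sham and 1609 and 1602 in 5/6Nx.

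The let-7 family, which rises as cells differentiate, had 7 of 8 measured members of 9 listed above 0 (170 of 306 among all tested), a median of 0.20 (0.34 against sham A, 0.21 against sham B), 5 with both 5/6Nx pools above both sham pools (66 of 306, 21.6%, among all tested), and 0 past the threshold; the count of 7 was the same under each of the 4 other scalings. let-7a-5p had 5694 and 6890 CPM in sham and 7900 and 7974 in 5/6Nx. let-7d-5p had 845 and 890 CPM in sham and 1100 and 1151 in 5/6Nx (log2 0.38 ± 0.13, adjusted p = 0.255), with a like change against sham A (0.41) and sham B (0.34). let-7f-5p, the most abundant, overlapped, with 12660 CPM in sham A, 24394 in sham B and 21388 and 20103 in 5/6Nx.

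In the endothelial and smooth muscle lists sham A stood apart mainly through miR-126a-5p and miR-143-3p. miR-126a-3p had 5178 and 3632 CPM in sham and 4031 and 4141 in 5/6Nx, and with miR-126a-5p the endothelial list of 2 measured summed to 56618 CPM in sham A against 16732 to 23556 in the other pools. The 4 smooth muscle miRNAs summed to 83212 CPM in sham A against 194154 to 259665 in the other pools, all but a small part of it miR-143-3p. Its cluster partner miR-145-5p did not share this, with 977 and 980 CPM in sham and 1018 and 915 in 5/6Nx. miR-145-3p went the other way, with 407 and 223 CPM in sham and 279 and 296 in 5/6Nx. miR-143-5p was scarce, with 19.8 and 23.6 CPM in sham and 28.5 and 27.2 in 5/6Nx. The part of endothelial and smooth muscle miRNAs in the results was not tested. Erythrocyte miRNAs summed to 328 and 454 CPM in sham and 224 and 479 in 5/6Nx, and miR-451-5p, the main one, had 248 and 367 in sham and 162 and 369 in 5/6Nx, so it varied within both groups. miR-144-3p, from the same cluster, had 37.8 and 37.9 CPM in sham and 24.6 and 46.9 in 5/6Nx. miR-210-3p, induced by hypoxia, had 215 and 229 CPM in sham and 254 and 240 in 5/6Nx (log2 0.15 ± 0.15, adjusted p = 0.740), and miR-34a-5p, a target of p53, overlapped with 85.5 and 106.4 CPM in sham and 88.6 and 101.2 in 5/6Nx.

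**Figure D4:**
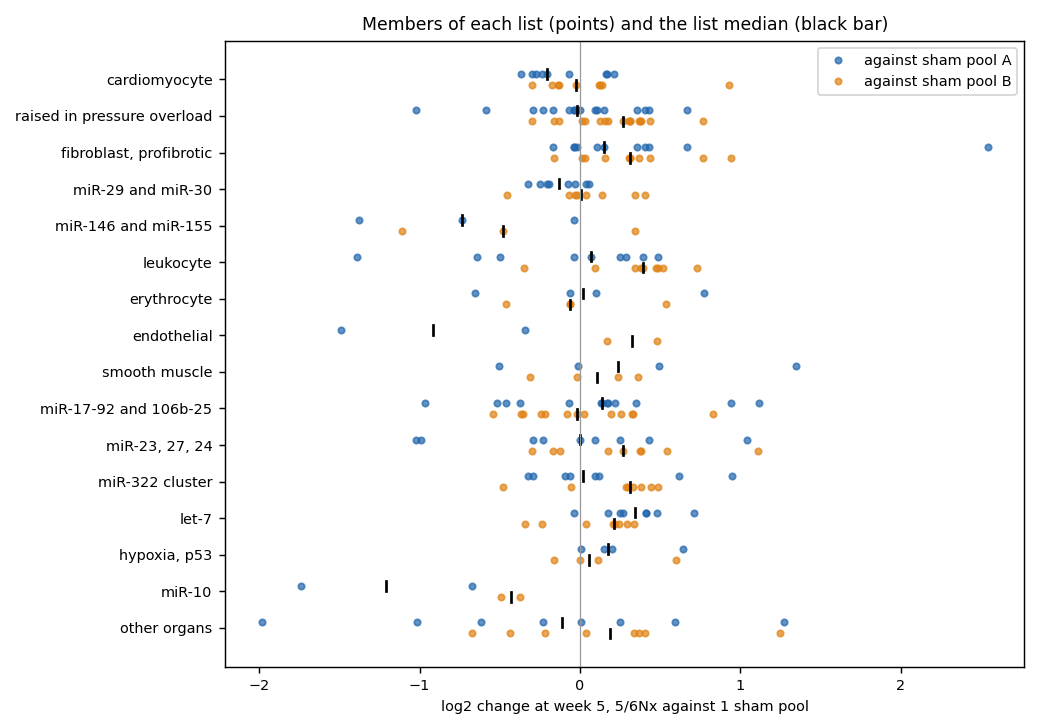
Log2 change at week 5 of the tested members of each list, against sham pool A (blue) and against sham pool B (orange), with the list median as a black bar. The median of the miR-146 and miR-155 list is -0.74 against sham A and -0.48 against sham B; the endothelial median lies at -0.92 against sham A and 0.33 against sham B.

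The 10 most abundant miRNAs of the week 5 pools were miR-143-3p, miR-22-3p, miR-30a-5p, miR-133a-3p, miR-26a-5p, miR-27b-3p, miR-30e-5p, miR-181a-5p, miR-3596a and miR-10a-5p. Both 5/6Nx pools were below both sham pools for miR-30a-5p and miR-10a-5p and above both for miR-133a-3p and miR-27b-3p, while the groups overlapped for the other 6. Among all 306 tested, 13.4% lay below and 21.6% above, so these 10 did not stand out from the rest. For miR-133a-3p the nearest pair differed by 1.01-fold. miR-22-3p, a heart-enriched miRNA with a role in hypertrophy, had 159535 and 123248 CPM in sham and 149150 and 151927 in 5/6Nx. miR-26a-5p had 56855 and 49302 CPM in sham and 51066 and 48418 in 5/6Nx, and miR-181a-5p had 22608 and 30524 in sham and 27728 and 27443 in 5/6Nx.

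The week 5 change was then tested against the changes of the other weeks. Against the mean of the changes at weeks 2, 4 and 7 it differed for 4 of 306 miRNAs (1.31%), 2 toward higher and 2 toward lower, and 47 had an unadjusted p under 0.05. miR-146b-5p differed most, by -1.89 ± 0.22 in log2 change (adjusted p = 0.000151). Its weekly changes were 0.47 ± 0.19 at week 2, 0.61 ± 0.19 at week 4, -0.93 ± 0.19 at week 5 and 1.80 ± 0.19 at week 7, so week 5 was the 1 week with a lower level after surgery. The pools of week 2 lay between 209 and 363 CPM, those of week 4 between 509 and 842, and at week 7 sham had 1493 and 1377 and 5/6Nx 5766 and 4256 CPM. The week 5 5/6Nx pools therefore lay below every pool of week 4, and the week 5 sham pools lay within or just above the range of week 4.

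let-7d-5p differed from the other weeks by 0.78 ± 0.15 (adjusted p = 0.0158), as did miR-3596b (0.78 ± 0.15, adjusted p = 0.0158), whose bases are those of let-7d-5p on the opposite strand and and whose counts follow it library by library. The weekly changes of let-7d-5p were -0.40, -0.82, 0.38 and 0.02 at weeks 2, 4, 5 and 7, each ± 0.13. The week 5 sham pools, at 845 and 890 CPM, were the lowest sham pools of the series for it, the other 6 lying between 1136 and 1569. miR-3559-5p, a scarce miRNA with 43 and 50 counts in sham and 31 and 42 in 5/6Nx, differed by -1.36 ± 0.31 (adjusted p = 0.0499).

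Against the change at week 4, 4 miRNAs differed (1.31%): let-7d-5p (1.19 ± 0.19, adjusted p = 0.00228), miR-3596b (1.20 ± 0.19, adjusted p = 0.00228) and miR-21-3p (2.06 ± 0.47, adjusted p = 0.0458) toward higher, and miR-146b-5p (-1.54 ± 0.27, adjusted p = 0.00458) toward lower. For miR-21-3p the sham pools of the other weeks lay between 33.8 and 86.7 CPM, above both week 5 sham pools, and the 5/6Nx pools of week 4 (41.8 and 39.5 CPM) were close to those of week 5. Against the change at week 7, 4 differed (1.31%), all toward lower: miR-146b-5p (-2.74 ± 0.27, adjusted p = 1.94e-05), miR-21-5p (-1.29 ± 0.20, adjusted p = 0.00177), miR-208b-3p (-1.58 ± 0.30, adjusted p = 0.0114) and miR-221-3p (-1.16 ± 0.26, adjusted p = 0.0377). At week 7 miR-21-5p had 4319 and 4262 CPM in sham and 11991 and 11791 in 5/6Nx, and miR-208b-3p had 1330 and 1641 in sham and 3882 and 4397 in 5/6Nx. These comparisons share the week 5 pools. The calls were not equally firm in the alternatives tried. Against week 4 that of miR-21-3p held in 4 of 28, and those of let-7d-5p and miR-3596b in 26 of 28 each. Against the mean of the other weeks miR-3559-5p held in 10 of 25, and let-7d-5p and miR-3596b in 18 of 27 each. Against week 7 miR-221-3p held in 11 of 27, miR-208b-3p in 22 of 27 and miR-21-5p in 26 of 27. Without sham A of week 5 the counts against the mean of the other weeks, week 4 and week 7 were 28, 8 and 9, and without sham B they were 62, 51 and 47. Against week 4 the count was 0 without 5/6Nx pool B of week 4 and 1 without 5/6Nx pool A of week 5. Against the mean of the other weeks it was 1 or 2 without any 1 of either week 5 5/6Nx pool, sham A or 5/6Nx B of week 4 and sham A or 5/6Nx B of week 7, and 7 without sham A or either 5/6Nx pool of week 2 or 5/6Nx A of week 7. Against week 7 it was 2 without 5/6Nx B of week 5 or sham A of week 7. In all alternatives tried miR-146b-5p stayed past the threshold against the mean of the other weeks and against week 7, and against week 4 in all but that without 5/6Nx pool B of week 4.

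miR-146a-5p and miR-24-3p did not pass these tests (adjusted p = 0.0530 and 0.0557 against the mean of the other weeks). For miR-146a-5p week 2 lay between 617 and 712 CPM, week 4 between 1393 and 2355, and week 7 between 2661 and 2963, so the week 5 5/6Nx pools (845 and 925) lay between weeks 2 and 4 and sham A (2301) near the top of week 4. miR-24-3p was at 631 to 1263 CPM at week 2, 1947 to 2177 at week 4 and 2815 to 3365 at week 7, with the week 5 5/6Nx pools at 992 and 1114 and sham A at 2141. In both, the sham A to sham B difference ran the same way as the 5/6Nx change. Its part in these changes was not tested.

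**Figure D5:**
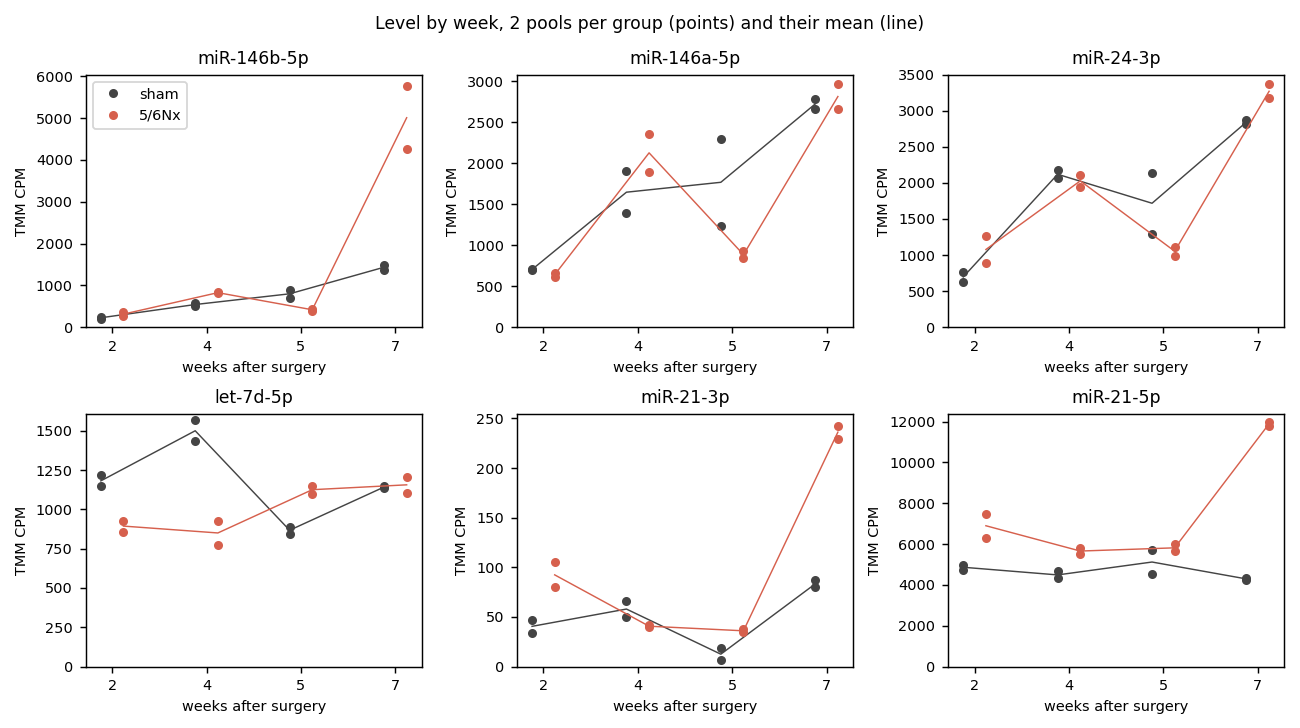
CPM of 6 miRNAs in the 16 libraries by week after surgery, points for pools and lines through the group means (dark grey sham, red 5/6Nx; weeks are evenly spaced and not to scale). At week 5 miR-146b-5p is lower after surgery (395 and 441 against 697 and 902 CPM) and at the other 3 weeks higher; miR-21-5p separates at week 7 (11991 and 11791 against 4319 and 4262 CPM).

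The authors' deposited table called 0 rat miRNAs at an adjusted p under 0.05 at week 5. For miR-146b-5p, miR-146a-5p and miR-21-3p the authors' deposited table gives log2 changes of -0.96, -1.01 and 1.501, each with an adjusted p of 1.

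Of the 41 rat miRNAs not listed at week 7, all were scarce, with at most 141 counts over the 4 week 5 pools. In a fit of weeks 2, 4 and 5 alone 19 of them could be tested; 0 passed the threshold and 1, miR-384-3p, had an unadjusted p under 0.05 (6 and 5 counts in sham, 11 and 22 in 5/6Nx).

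By sequence, the 277 matched miRNAs held 222 distinct seeds, of which 32 were shared by 2 or more tested miRNAs. Among the matched miRNAs the miR-146 seed was the 1 shared seed whose members all had both 5/6Nx pools below both sham pools, and the seed of miR-221-3p and miR-222-3p the 1 whose members were all above. Each of these seeds had only 2 tested members. Among all 306 tested, 41 (13.4%) lay below and 66 (21.6%) above. Whether such seeds were more frequent than these shares would give was not tested. Among the tested miRNAs, 21 pairs are annotated on opposite strands of the same bases, such as let-7d-5p with miR-3596b, miR-434-3p with miR-3543 and let-7a-5p with miR-3596a. For 8 pairs of miRNAs with a mean over 50 counts the ratio of their counts stayed within 10% of its median in all 16 libraries, and 7 of these are opposite-strand pairs, so such a pair is not 2 independent measurements. let-7a-5p and miR-3596a did not keep such a ratio (16722 and 58717 counts in sham A, 18710 and 82257 in sham B). How the authors assigned reads to strands is not given in the sources used here.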

How the data were processed

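Small RNA was sequenced from left ventricle of rats at 4 times after 5/6Nx or sham surgery, 2 pools per group. The deposited tables hold whole-number counts per miRNA or locus made by the authors, with the authors' log2 fold changes and p-values. Per the submitters' processing notes cutadapt, Bowtie and DESeq were used; versions, genome build, miRNA annotation and the counter were not given in the sources used here. A deposited table of mapping rates was not used, since its rows could not be matched to samples, and entries named for other species (150 at week 5) and unnamed loci (386) stayed out of the tests.

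Counts of the 317 rat miRNAs listed at every week were scaled by TMM and filtered with filterByExpr (minimum count 10; 306 kept), and 16 libraries in 8 groups were fitted with edgeR 4.0.16 (R 4.3.3) quasi-likelihood tests, Benjamini-Hochberg adjusted; SE is the log2 change over the root of F. The fit was tested on simulated data. A fit with the week 5 sham pools as separate groups was added after seeing the data. Alternatives used other scalings and filters, DESeq2 1.42.0, limma 3.58.1, a block by pool letter and each library left out. Named miRNAs are the 8 per direction with the smallest p among those whose groups did not overlap, those past the threshold in the comparison with the other weeks, the 10 most abundant, the 5 per direction that differed most between the sham pools, and a fixed list of heart miRNAs; other names belong to the lists or to these miRNAs' hairpins and seeds and were chosen after their values were seen. The members and lists were chosen with earlier results of these data known. Pool letters are those of the tables, and their link to the replicate numbers of the labels is not stated.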

Additional observations from a re-analysis of the deposited data

Results flagged for a closer look

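The week 5 change differed from that of other weeks by a test of the difference (edgeR, adjusted p under 0.05) for 8 miRNAs. Against the mean of weeks 2, 4 and 7 the log2 difference was -1.89 for miR-146b-5p, -1.36 for miR-3559-5p, 0.78 for let-7d-5p and 0.78 for its opposite-strand partner miR-3596b. Against week 4 it was -1.54 for miR-146b-5p, 2.06 for miR-21-3p, 1.19 for let-7d-5p and 1.20 for miR-3596b. Against week 7 it was -2.74 for miR-146b-5p, -1.58 for miR-208b-3p, -1.29 for miR-21-5p and -1.16 for miR-221-3p. All of these use the week 5 sham pools, which differ from each other. The least firm calls held in 4 of 28 alternatives (miR-21-3p), 10 of 25 (miR-3559-5p) and 11 of 27 (miR-221-3p).

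Of 386 unnamed loci, which are outside the miRNA comparison, 3 held over 100 counts in both 5/6Nx pools and 0 in both sham pools at week 5, and 1 had the reverse pattern, on chromosome 9 from 22162629 to 22162721 with 201 and 560 counts in sham A and B. The locus on chromosome 9 from 73734064 to 73734144 had 9694 and 13306 counts in 5/6Nx A and B. At week 4 sham A had 0 counts there, sham B 13580, 5/6Nx A 16388 and 5/6Nx B 0, and at week 2 all 4 pools were at 0. A pair of overlapping loci on chromosome 3, from 118996574 to 118996710 and from 118996606 to 118996685, each had 3955 and 5064 counts in 5/6Nx A and B, the same number in each, and at week 2 the longer of them had 2592 and 4096 counts in sham. The genome build of these coordinates is not given in the sources used here. At week 5, 25 of the loci were at 0 in 1 sham pool with over 100 counts in the other, and 30 were so between the 5/6Nx pools.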

How the results depend on the processing

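Of 1680 recomputed log2 changes of 58 named miRNAs, 1562 kept direction and side of the threshold, 48 newly passed it and 70 turned direction; with no library left out these numbers were 723, 12 and 17 of 752. The count of miRNAs past the threshold at week 5, 0 as reported, was 2 with library sizes taken without the 5 most abundant miRNAs, 2 with no filter, 1 with a minimum count of 50, 6 with DESeq2, 67 against sham A alone, 4 against sham B alone, and 0 to 63 with 1 library left out (13 without sham A, 63 without sham B). Against the mean of the other weeks the count of 4 became 7 with RLE factors, upper quartile scaling, library sizes without the 5 most abundant, no filter or a minimum count of 50, 2 with plain library sizes, 12 with DESeq2, 1 with quality weights in limma, and 1 to 62 with 1 library left out (28 without sham A). Against week 4 the count of 4 ranged from 0, without 5/6Nx pool B of week 4, to 51, without sham B. Against week 7 the count of 4 became 1 with upper quartile scaling, 2 with quality weights and 2 with all entries, and 2 to 47 with 1 library left out. The cause was not tested.

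Directions turned only for changes near 0 when no library was left out. For miR-30e-5p (0.002) the log2 change was -0.036 with RLE factors, -0.021 with plain library sizes, -0.033 without the 5 most abundant, -0.061 with no filter, -0.078 with a minimum count of 50, -0.036 with DESeq2, -0.0062 with all entries, -0.033 in weeks 2, 4 and 5 and -0.067 in week 5 alone. With upper quartile scaling it was 0.017 for miR-208a-3p, 0.065 for miR-214-3p, 0.041 for miR-29a-3p, 0.053 for miR-145-5p and 0.042 for miR-34a-5p. For miR-181a-5p it was -0.017 with no filter, -0.027 with a minimum count of 50 and -0.024 in week 5 alone. With 1 library left out the log2 change ranged from -1.07 to 0.34 for miR-100-5p, -0.85 to 0.58 for miR-101a-3p, -0.46 to 0.039 for miR-126a-3p, -1.61 to 0.35 for miR-126a-5p, -0.013 to 0.64 for miR-132-3p, -0.13 to 0.24 for miR-133a-3p, -0.040 to 0.18 for miR-142-3p, -0.44 to 1.23 for miR-143-3p, -0.62 to 0.15 for miR-144-3p, -0.26 to 0.053 for miR-145-5p, -0.15 to 0.21 for miR-155-5p, -0.28 to 0.17 for miR-181a-5p, -1.54 to 0.45 for miR-191a-5p, -0.15 to 0.18 for miR-199a-5p, -0.35 to 0.022 for miR-208a-3p, -0.10 to 0.24 for miR-21-5p, -0.049 to 0.19 for miR-210-3p, -0.14 to 0.0032 for miR-214-3p, -0.20 to 0.16 for miR-22-3p, -0.024 to 0.25 for miR-27b-3p, -0.32 to 0.0089 for miR-29a-3p, -0.37 to 1.24 for miR-30c-2-3p, -0.16 to 0.011 for miR-30e-5p, -0.29 to 0.036 for miR-34a-5p, -0.20 to 0.41 for miR-3596a, -0.92 to 0.092 for miR-451-5p, -1.78 to 0.47 for miR-99a-5p and -1.57 to 0.39 for miR-99b-5p.

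With the pool letter as a replicate block the count was 1 at week 5, 1 against the mean of the other weeks, 4 against week 4 and 3 against week 7. Pools with the same letter did not deviate together (r = 0.10, -0.09, 0.02 and -0.18 at weeks 2, 4, 5 and 7), so the letters were not read as pairs. Depth limits the scarce miRNAs, such as miR-582-3p with 7 counts in sham A.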
